A study of Rattus norvegicus with 6 samples.

Results

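The genes described here encode chemokines, interleukins and their receptors. They were taken by symbol, as every table entry named Ccl, Ccr, Cxcl, Cxcr or Il with a number, or Cx3cl1 or Cx3cr1, which gave 132 of 27217 genes. Their RNA was measured in 3 libraries of RCS cells, a cartilage tumour line whose name stands for rat chondrosarcoma, and in 3 of neonatal rat rib. No treatment, engineered allele, strain or sex is named for either group, and the rib was sequenced as whole tissue, so bone, muscle, vessels and blood cells can be in it. The replicates are described as biological, without the cultures or animals they came from, so p-values measure the spread between these libraries, which may be in part technical.

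Chemokines are small secreted proteins that guide cell migration through G protein-coupled receptors. CC and CXC chemokines differ in the spacing of their first cysteines. Interleukins are signals between cells, and many of them act through receptors built from a private chain and a chain shared with other cytokines. In skeletal tissue, interleukin and chemokine signals are known for steering matrix breakdown in cartilage, osteoclast formation and the homing of blood-forming cells. The comparison shows which of these genes the cartilage tumour line transcribed and which were present in the tissue it is set against.

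Levels are normalized counts, meaning a gene's reads over 1 factor per library. Since length was not divided out, a level also depends on transcript length. Where genes are set side by side or against a cut-off, their counts do not rank their expression. A gene listed at 0 had a normalized count of 1 at most, which is up to 1.93 reads in an RCS library and up to 1.32 in a rib library. By an estimate from the values, RCS libraries held 6000000 to 8530000 gene reads and rib libraries 5320000 to 7490000. Each difference subtracts rib tissue from RCS cells on the scale log2(normalized count + 1), with SE, n = 3 libraries per group. This scale understates changes of low genes. All 6 chondrocyte markers were above 0 in each of the 6 libraries. Matn1 was 3.25-fold higher in RCS cells, Col2a1 was 6.13-fold lower, and the other 4 were called neither higher nor lower. Macrophage markers summed to 84.7 to 96.4 normalized counts in RCS cells against 1601 to 2886 in rib tissue, endothelial markers to 5.49 to 21.0 against 2247 to 3610, and fibroblast markers to 162 to 181 against 36569 to 75104. All 13 macrophage, 6 endothelial and 6 fibroblast markers were lower in RCS cells, and 8, 4 and 1 of them were at 0 throughout the RCS libraries. The macrophage markers C1qa, C1qb, C1qc and Cd163 were among those at 0. Cd14 held most of the macrophage sum in RCS cells. It was at 56.7, 57.9 and 57.1 there against 90.7, 84.7 and 94.2 in rib tissue, 1.56-fold lower. Of 3 leukocyte markers, all lower in RCS cells, Ptprc was at 0 there, while Coro1a stood at 10.5 to 11.9 and Laptm5 at 29 to 37.

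Most of the family was silent or low in the chondrosarcoma line. Of the 132 genes, 81 were at 0 in each RCS library, 37 in every rib library and 36 in all 6 libraries. Over all 27217 genes these counts were 12139, 9421 and 9133. The share at 0 in all 6 libraries was 27.3% of members against 33.6% of all genes. Of the genes listed at 0 in every rib library, Il6, the gene of interleukin 6, was the exception in RCS cells, with 0, 1.56 and 2.13 normalized counts. In all, 44 members were above 0 in each RCS library, 69 in each rib library and 39 in all 6, against 13838, 16142 and 13381 of all genes. Tests covered the 78 genes that reached 1 normalized count in 3 or more libraries. The other 54 stayed at or below 11.3 in any library.

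Of the 78 tested genes, 10 were higher in RCS cells, 47 were lower and 21 did not pass the test (limma across 16809 genes, Benjamini-Hochberg adjusted p under 0.05). Across all tested genes, 76.5% passed, 32.9% higher in RCS cells and 43.6% lower. For the members these shares were 12.8% higher and 60.3% lower, and the median difference was -1.43 against -0.15 for all tested genes. With values listed at 0 set to 1 it was -0.99. Groups did not overlap at 56 of the 78, or 71.8%, against 78.9% of all tested genes. The 28 tested members listed at 0 in every RCS library were 35.9% of tested members, against 11.6% of all tested genes. These 28 members passed the filter through rib tissue alone and had to come out lower. Their RCS values had no spread, so their SE and p-values do not measure the spread of both groups. Among the 39 members above 0 in every library, 7 were higher, 17 lower and 15 neither, or 17.9% higher and 43.6% lower, against 38.8% and 34.6% of 13381 such genes overall. The count of higher members was 22 under both quantile normalization and cyclic loess, with 36 and 34 lower. Quantile normalization moved the median of all tested genes by 0.43 and cyclic loess by 0.18 towards RCS cells. Among all genes called in either direction, the share called higher went from 43.0% to 58.5% and 50.1%. In bulk RNA, fewer cells of a type and less RNA per cell cannot be told apart.

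**Figure D1:**
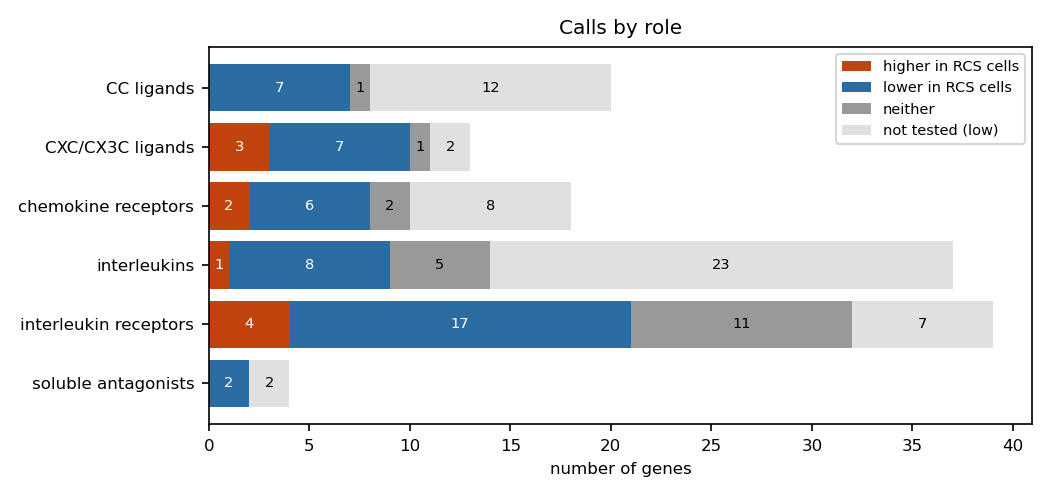
Number of genes (horizontal axis) in each role list (vertical axis), split by the test of RCS cells against rib tissue. CC ligands have no gene higher in RCS cells, CXC and CX3C ligands have 3, chemokine receptors 2, interleukins 1 and interleukin receptor chains 4.

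Of the 10 genes higher in RCS cells, 3 encode CXC chemokines, namely Cxcl1, Cxcl10 and Cxcl11. Cxcl1 attracts neutrophils through Cxcr2, and Cxcl10 and Cxcl11 are interferon-induced ligands of Cxcr3. Their promoters are shown because the genes were high together, beside that of Cxcl12, which was high in rib tissue and listed at 0 in RCS cells. Each window holds 300 bases, from 250 before to 50 after the RefSeq start in GRCr8, and is printed along the gene's strand. The windows are chr14:17479272-17479571 on the minus strand for Cxcl1 and chr14:15988816-15989115, chr14:15973478-15973777 and chr4:152060531-152060830 on the plus strand for Cxcl10, Cxcl11 and Cxcl12. Capitals mark matches, on either strand, to the consensus of NF-kappaB, a transcription factor of inflammatory signalling.
Cxcl1: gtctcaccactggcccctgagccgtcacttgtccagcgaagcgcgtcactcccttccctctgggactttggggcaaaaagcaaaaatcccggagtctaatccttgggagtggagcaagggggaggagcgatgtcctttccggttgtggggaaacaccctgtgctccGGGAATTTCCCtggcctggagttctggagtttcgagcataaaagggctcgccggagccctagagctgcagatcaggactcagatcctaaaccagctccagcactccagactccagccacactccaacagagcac
Cxcl10: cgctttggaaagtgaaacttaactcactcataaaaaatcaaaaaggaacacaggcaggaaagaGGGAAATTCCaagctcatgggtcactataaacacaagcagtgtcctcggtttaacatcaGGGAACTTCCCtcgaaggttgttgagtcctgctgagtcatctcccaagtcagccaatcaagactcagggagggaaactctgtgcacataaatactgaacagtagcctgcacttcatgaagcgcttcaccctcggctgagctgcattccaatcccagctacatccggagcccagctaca
Cxcl11: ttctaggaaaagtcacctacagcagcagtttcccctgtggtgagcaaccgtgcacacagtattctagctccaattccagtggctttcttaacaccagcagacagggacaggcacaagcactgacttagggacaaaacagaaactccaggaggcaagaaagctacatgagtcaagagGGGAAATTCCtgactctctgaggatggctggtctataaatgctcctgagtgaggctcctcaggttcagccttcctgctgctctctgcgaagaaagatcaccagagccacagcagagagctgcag
Cxcl12: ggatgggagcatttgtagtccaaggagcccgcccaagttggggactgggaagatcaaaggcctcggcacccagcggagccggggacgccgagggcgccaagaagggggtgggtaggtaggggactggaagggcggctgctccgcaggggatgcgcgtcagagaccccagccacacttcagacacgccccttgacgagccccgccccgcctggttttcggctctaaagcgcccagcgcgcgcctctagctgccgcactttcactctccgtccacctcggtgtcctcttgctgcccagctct

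The NF-kappaB consensus matched in Cxcl1 at 84 to 74 bases before the start, as 2 overlapping matches. In Cxcl10 it matched at 187 to 178 and, overlapping, at 128 to 118 bases before the start, and in Cxcl11 at 74 to 65. It did not match in the Cxcl12 window. Of 33469 RefSeq windows, 7.51% held the consensus. Of 99 members matched to a window, 19 held it (19.2%). It was in 3 of 7 windows of members higher in RCS cells, 4 of 40 of those lower and 7 of 16 of those that did not pass the test. Among 12 CXC and CX3C ligand windows it was in 5, those of Cxcl1, Cxcl2, Cxcl5, Cxcl10 and Cxcl11. A match is a run of letters, and binding was not measured.

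Cxcl1 stood at 80.2, 101 and 119 normalized counts in RCS cells and at 1.9, 6.26 and 0 in rib tissue. Every RCS library was above every rib library, and the difference was 5.17 (SE 0.63, limma adjusted p 0.00011). Its close relatives stayed near the floor in the same RCS libraries. Cxcl2, which lies next to Cxcl1 in GRCr8, was at 1.63, 1.04 and 1.42 normalized counts, and Cxcl3 and Cxcl5 were listed at 0. In rib tissue Cxcl2 was at 0, 3.12 and 0, and its difference of 0.55 did not pass the test (adjusted p 0.387). Reads could be split among these related genes by the counting rule, which the sources used here do not give.

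Cxcl10 was at 38.9, 32.4 and 45.3 normalized counts in RCS cells against 7.73, 22.2 and 13.9 in rib tissue, 2.74-fold higher (difference 1.45, SE 0.36, limma adjusted p 0.00625), and its difference was 3.33 under quantile normalization and 2.62 under cyclic loess. Cxcl11 was at 28.2, 38.5 and 44.1 against 0, 5.13 and 3.0 (difference 3.68, SE 0.62, limma adjusted p 0.000724). Neither gene's groups overlapped. Cxcl9, the third interferon-induced ligand of Cxcr3, lies beside Cxcl10 in GRCr8 and went the other way. No RCS library held it above 0, and rib tissue had 35.2, 76.9 and 20 (difference -5.28). Cxcr3 itself did not exceed 1.42 in any library. In GRCr8 both Cxcl10 and Cxcl11 lie within the span of Art3, which was at 364 to 393 in RCS cells against 297 to 440 and did not pass the test. The use of strand is not given, so reads of Art3 counted for these chemokines cannot be told apart.

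The remaining CXC and CX3C ligands were higher in rib tissue or near the floor. Cxcl12, the stromal ligand of Cxcr4 that holds blood-forming cells in their niche, was at 796, 753 and 503 normalized counts in rib tissue and at 0 in every RCS library (difference -9.39, SE 0.24). Cxcl14, a chemokine of epithelium and stroma, was at 193, 220 and 462 in rib tissue and at 0 in RCS cells (-8.08, SE 0.35). Cx3cl1, the membrane-bound chemokine fractalkine, was at 55.7, 51.8 and 47.5 in rib tissue and 6.56, 3.11 and 4.19 in RCS cells (-3.27, SE 0.29). The fractalkine difference was -1.34 under quantile normalization and -1.80 under cyclic loess. Limma adjusted p was 2.68e-08 for Cxcl12, 3.18e-07 for Cxcl14 and 1.47e-05 for Cx3cl1. Listed at 0 in RCS cells, Cxcl12 and Cxcl14 could only differ in that direction.

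Cxcl16, a membrane-bound ligand of Cxcr6, was the ligand with the closest levels in the groups among those that passed the test. It was at 34.2, 47.9 and 52.1 normalized counts in RCS cells and 69.4, 91.1 and 57.0 in rib tissue, 1.60-fold lower in RCS cells (difference -0.68, SE 0.24, limma adjusted p 0.0279). The call was lost without RCS cells replicate 1 (-0.50) or 2 (-0.74) and when rib tissue replicate 1 (-0.70) or 2 (-0.50) was left out, under cyclic loess (-0.53) and with no filter on low values, and the difference turned to 0.32 under quantile normalization. Of the 11 tested CXC and CX3C ligands, 3 were higher, 7 lower and 1 neither, and 3 of those lower were at 0 in every RCS library.

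**Figure D2:**
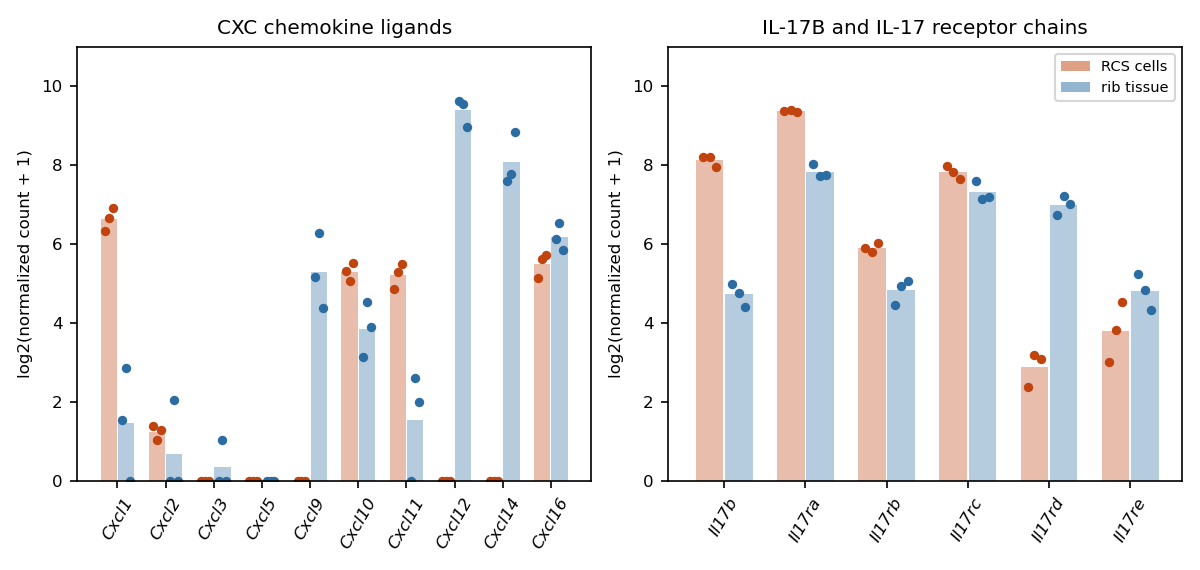
Levels as log2(normalized count + 1) on the vertical axis for CXC ligands (left) and for Il17b and the Il17 receptor chains (right), with each point a library and each bar the mean of 3. Cxcl1, Cxcl10 and Cxcl11 are higher in RCS cells while Cxcl9, Cxcl12 and Cxcl14 are at 0 there, and Il17b, Il17ra, Il17rb and Il17rc are higher in RCS cells while Il17rd is lower.

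No CC chemokine ligand was higher in RCS cells. Of 20 genes, 18 had no RCS library above 0, and 8 were at 0 in all 6 libraries. Of the 8 tested, 7 were lower and 1 did not pass the test, and 6 of the 8 were at 0 in every RCS library. Ccl21, which draws lymphocytes and dendritic cells through Ccr7, was at 228, 251 and 155 normalized counts in rib tissue (difference -7.70, SE 0.27, limma adjusted p 1.07e-07). Rodents carry close copies of Ccl21, so its reads may be split or shared among them. The monocyte attractants Ccl2 (19.1, 47.2 and 12.5) and Ccl7 (7.58, 24.3 and 10) were both highest in rib tissue replicate 2. So was Ccl24, an eotaxin that draws eosinophils, at 11.7, 31.8 and 5.0. All 4 of these genes were at 0 in every RCS library, and Ccl2 differed by -4.56, Ccl7 by -3.74 and Ccl24 by -3.76. Under cyclic loess these differences were -2.48, -1.51 and -1.53, and that of Ccl7 was -2.39 under quantile normalization.

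Ccl6 and Ccl9, chemokines of rodent macrophages, were the CC ligands with a signal in RCS cells. Ccl9 was at 3.27, 4.15 and 7.09 normalized counts in RCS cells and 29.9, 11.6 and 6.0 in rib tissue, and the groups overlapped. Its difference was -1.31 (95% interval -2.56 to -0.07, limma adjusted p 0.0536). The value was -0.74 without rib tissue replicate 1. It passed the test without rib tissue replicate 3 (-1.81), with array weights (-1.49), under median scaling (-1.36) and with the replicate number as a block (-1.31), and it turned to 0.46 under cyclic loess and 1.12 under quantile normalization. Ccl6 was at 4.25, 1.56 and 2.13 against 15.2, 10.3 and 3.44 (difference -1.42), a call lost when RCS cells replicate 2 or 3, or rib tissue replicate 1 or 2, was left out. The Ccl6 call was also lost under cyclic loess and quantile normalization, with no filter on low values and with no intensity trend.

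Most chemokine receptors were listed at 0 throughout the RCS libraries, which held for 13 of 18 genes. Of the 10 tested, 2 were higher, 6 lower and 2 neither, and 5 of those lower were at 0 in every RCS library. Ccr1, a receptor of monocytes and osteoclast precursors, was at 39.8, 43.9 and 16.0 normalized counts in rib tissue and at 0 in RCS cells (difference -4.98, SE 0.41, and -2.97 under cyclic loess). Cx3cr1, the fractalkine receptor of monocytes and macrophages, was at 35.3, 54.5 and 28.0 in rib tissue and at 0 in RCS cells (-5.28, SE 0.32, and -3.33 under cyclic loess). Limma adjusted p was 9.56e-06 for Ccr1 and 1.76e-06 for Cx3cr1. Ccr7 and Cxcr6 were also at 0 in RCS cells and lower by the test, and Ccr7, at 2.0 to 3.08 in rib tissue, lost its call under cyclic loess. Macrophage markers summed to 2865, 2886 and 1601 in rib tissue replicates 1 to 3, and their part in these differences was not tested.

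The Cxcl12 receptor genes Cxcr4 and Cxcr7 were above 0 in every RCS library, where Cxcl12 itself was listed at 0. Cxcr4, which signals through G proteins, was at 6.46, 17.1 and 10.9 normalized counts in RCS cells and 69.4, 99.6 and 46.4 in rib tissue, 5.94-fold lower (difference -2.57, SE 0.39, limma adjusted p 0.000392, and -1.09 under quantile normalization or -1.64 under cyclic loess). Cxcr7, now named Ackr3, takes up Cxcl12 without coupling to G proteins. It was at 89.8, 84.2 and 85.5 in RCS cells and 163, 198 and 73.0 in rib tissue, with rib tissue replicate 3 below every RCS library. The difference of -0.62 did not pass the test (95% interval -1.37 to 0.14, adjusted p 0.118) and was -0.33 without rib tissue replicate 2. It passed the threshold without rib tissue replicate 3 (-1.05), with array weights (-0.90) and with the replicate number as a block (-0.62, limma adjusted p 0.0365), and was -0.18 under quantile normalization.

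The receptors higher in RCS cells were Cxcr5, the receptor of Cxcl13 known from B cell follicles, and Ccr10, the receptor of Ccl27 and Ccl28. Cxcr5 was at 14.9, 15.7 and 21.3 normalized counts in RCS cells and 5.86, 2.05 and 6.66 in rib tissue (difference 1.74, SE 0.40, limma adjusted p 0.00389), or 3.72 under quantile normalization and 3.45 under cyclic loess. Its ligand gene Cxcl13 was lower in RCS cells, at 1.63, 3.11 and 4.25 against 14.4, 14.4 and 26.0, a call lost under quantile normalization and cyclic loess. Cxcr5 overlaps Bcl9l in GRCr8, which was itself lower in RCS cells (491 to 560 against 1168 to 1626). Of 9 lymphocyte markers 4 were tested, with 1 higher in RCS cells, 1 lower and 2 neither. The markers summed to 15.9 to 24.2 in RCS cells against 147 to 243 in rib tissue, where Cd4, a gene also read in macrophages, held most of the sum. The higher one was the B cell gene Cd79a, at 12.1, 18.7 and 15.6 in RCS cells and 0, 1.03 and 2.84 in rib tissue, while the B cell gene Ms4a1 was at 0 in all 6 libraries. The part of such cells or transcripts in the Cxcr5 values was not tested.

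Ccr10 was at 24.5, 26.1 and 27.3 normalized counts in RCS cells and 19.3, 15.4 and 10.5 in rib tissue, 1.72-fold higher (difference 0.79, SE 0.27, limma adjusted p 0.027). The groups did not overlap. The call was lost without RCS cells replicate 1 (0.83), 2 (0.78) or 3 (0.75) and without rib tissue replicate 2 (0.82), at limma adjusted p of 0.0527 to 0.0804. It was also lost with no filter on low values, and the difference was 2.70 under quantile normalization and 2.12 under cyclic loess. Ccr10 overlaps Cntnap1 in GRCr8, which was higher in RCS cells too, at 417, 333 and 339 against 104, 89.8 and 70.4. Reads of that gene counted for Ccr10 cannot be told apart. The ligand gene Ccl27 was at 0 in every RCS library, and Ccl28 in all 6 libraries.

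Among interleukins, Il17b was the gene higher in RCS cells. It encodes a secreted member of the interleukin 17 family that binds the receptor chain encoded by Il17rb. Il17b was at 295, 297 and 249 normalized counts in RCS cells and 30.8, 26.2 and 20.3 in rib tissue, 10.6-fold higher (difference 3.41, SE 0.18, limma adjusted p 8.02e-07). The lowest RCS library was far above the highest rib library. Of other family members, Il17a and Il17f were listed at 0 in all 6 libraries, and Il17c did not exceed 3.32 in any library. Il25, or interleukin 17E, was at 2.38, 1.4 and 2.83 in RCS cells against 3.03, 1.03 and 2.0 in rib tissue, without a call. It was called higher in RCS cells under cyclic loess and quantile normalization.

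Several receptor chains of the same family were higher too. Il17ra, the chain shared by several members of the family, was at 669, 679 and 651 normalized counts in RCS cells and 262, 212 and 214 in rib tissue, 2.91-fold higher (difference 1.54, SE 0.10, limma adjusted p 2.5e-06). Il17rb was at 58.7, 54.8 and 64.2 against 21.1, 29.9 and 32.4, 2.12-fold higher (1.08, SE 0.21, adjusted p 0.00178, and 2.55 under quantile normalization). Il17rc, which pairs with Il17ra in the receptor for interleukin 17A, was at 251, 228 and 200 against 193, 141 and 146, 1.42-fold higher (0.51, SE 0.15, adjusted p 0.0129). For each of these 3 genes the groups did not overlap. The Il17rc call was lost without RCS cells replicate 1 (0.43) and without rib tissue replicate 2 (0.43) or 3 (0.45), under cyclic loess (0.27) and with no filter on low values. Il17rb overlaps Actr8 and Chdh in GRCr8, and both were higher in RCS cells, Actr8 at 359 to 373 against 223 to 250 and Chdh at 221 to 257 against 109 to 165.

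Not every chain of the family was higher. Il17rd, also known as Sef and as an inhibitor of fibroblast growth factor signalling, was at 4.16, 8.18 and 7.44 normalized counts in RCS cells and 105, 149 and 129 in rib tissue (difference -4.11, limma adjusted p 3.32e-06). Il17re, the receptor chain for interleukin 17C, was at 7.08, 13.1 and 22.0 against 37.0, 27.4 and 19.0, with overlap between the groups and no call (difference -1.02, limma adjusted p 0.0538). Lower calls came with array weights, median scaling, pseudocount 10, a filter of 10 in 3 libraries and without RCS cells replicate 3. Traf3ip2, which encodes the adaptor Act1 of these receptors, was lower in RCS cells, at 13.2, 20.8 and 8.5 against 57.1, 53.6 and 68.7, 4.22-fold.

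The other interleukins were higher in rib tissue or near the floor in both groups. Of 37 genes, 27 had no RCS library above 0, and 17 were at 0 in all 6. Of the 14 tested, 1 was higher, 8 lower and 5 neither, and 5 of those lower were at 0 in every RCS library. IL33, an alarm signal stored in the nuclei of stromal and endothelial cells, was at 98.1, 180 and 98.3 normalized counts in rib tissue and at 0 in every RCS library (difference -6.92, SE 0.31). Il34, which together with Csf1 is a ligand of the macrophage receptor Csf1r, was at 56.0, 57.0 and 38.5 in rib tissue and 1.96, 0 and 0 in RCS cells (-5.14, SE 0.46, and -3.35 under cyclic loess). IL15, which sustains natural killer and memory T cells, was at 43.5, 93.0 and 60.6 in rib tissue and 13.3, 5.69 and 8.43 in RCS cells (-2.72, SE 0.37). Il16, the precursor of a T cell attractant, was the other interleukin besides Il17b with over 100 normalized counts in each RCS library, at 222, 188 and 206, against 663, 477 and 941 in rib tissue (3.25-fold lower). Limma adjusted p was 3.73e-07 for IL33, 1.69e-05 for Il34, 0.000207 for IL15 and 0.000142 for Il16. The IL15 difference was -1.13 under quantile normalization and -1.60 under cyclic loess.

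Classical inflammatory interleukins were scarce. Il1b was at 0 in every RCS library and at 13.1, 18.8 and 2.54 normalized counts in rib tissue (difference -3.32, a call lost under cyclic loess). Il1a was at 3.81, 2.59 and 7.16 in RCS cells and 2.96, 4.1 and 3.0 in rib tissue, without a call. Il11, a signal for bone-forming and stromal cells, was at 8.98, 7.2 and 10.6 against 9.46, 9.7 and 10.5, a difference of -0.15 whose adjusted p in limma was 0.63. At these levels a value rests on few reads, since 1 read was worth 0.519 to 1.03 normalized counts.

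**Figure D3:**
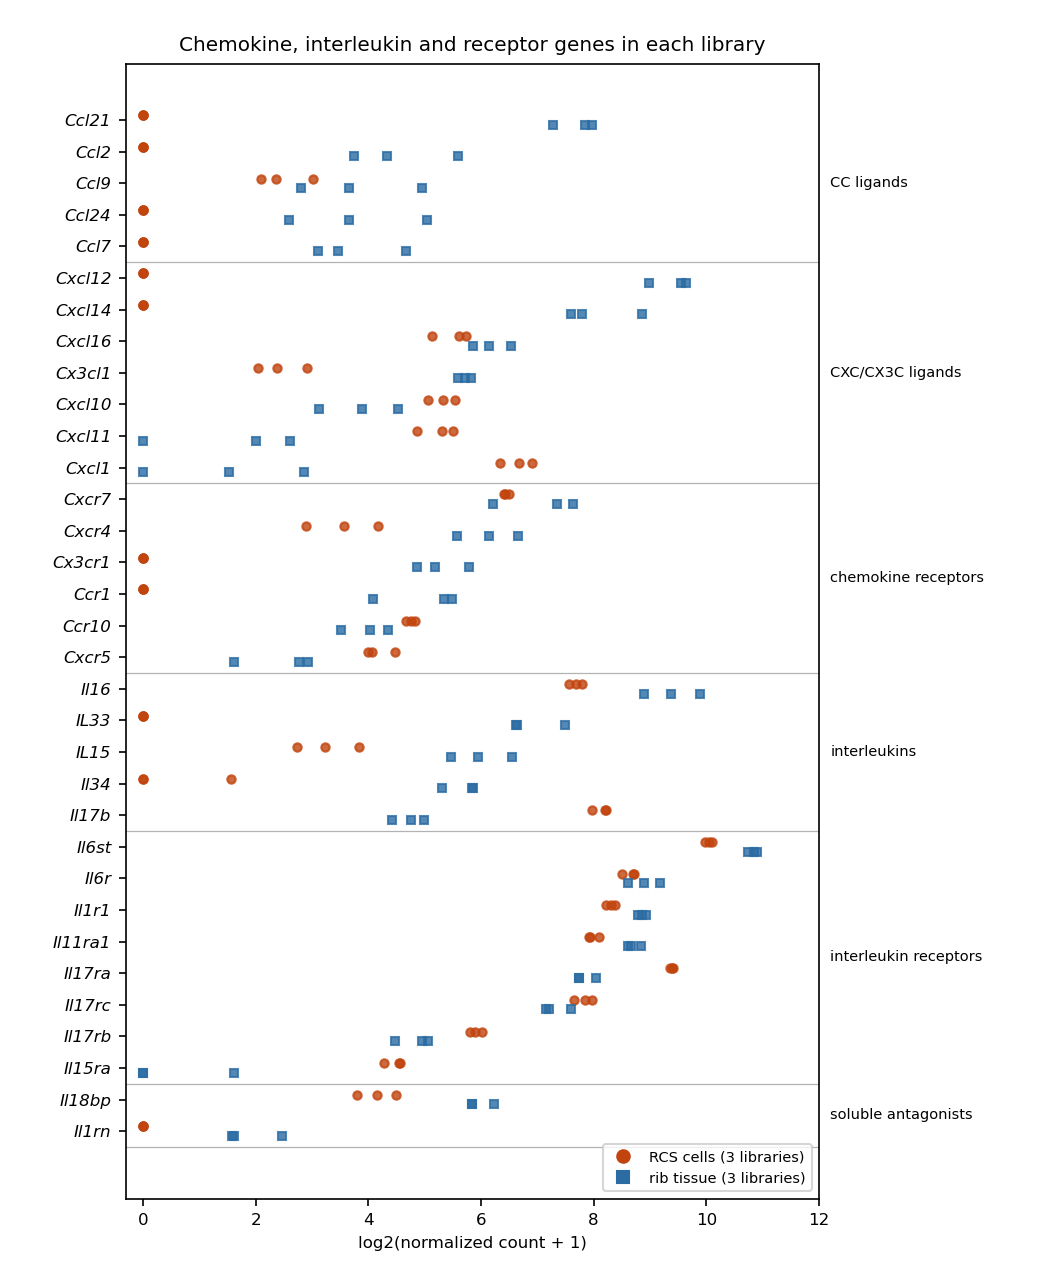
Levels as log2(normalized count + 1) on the horizontal axis in each of 6 libraries for 33 genes, grouped by role on the vertical axis. Genes such as Cxcl12, Ccl21 and IL33 sit at 0 in every RCS library and are high in rib tissue, while Il6st, Il6r and Il1r1 are high in both groups.

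Many interleukin receptor chains were detected in both groups. Of 39 genes, 20 were above 0 in every RCS library and 27 in every rib library. Of the 32 tested, 17 were lower in RCS cells, 4 higher and 11 neither, and the median difference was -0.93. Of those lower, 8 were at 0 in every RCS library. Il15ra, which presents interleukin 15 to neighbouring cells, was the receptor with the largest rise. It was at 22.3, 18.3 and 22.7 normalized counts in RCS cells and at 0, 2.05 and 0 in rib tissue (difference 3.92, SE 0.46, limma adjusted p 8.59e-05, and 5.92 under cyclic loess). Its ligand gene IL15 went in the opposite direction, as given above. Il2ra, which lies next to Il15ra in GRCr8, was at 0 in every RCS library.

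Among members that are receptor chains of the interleukin 6 family, Il6st, Il11ra1 and Il6r were above 200 normalized counts in every library, and Il31ra and Il27ra were not. Of chains outside the members, Lifr was too, at 569, 654 and 685 in RCS cells against 791, 1062 and 833 in rib tissue. Osmr (71.4, 82.4 and 84.9 against 161, 200 and 196) and Cntfr, given below, were not. Il6st encodes the shared signalling chain of this family and was at 1006, 1095 and 1051 normalized counts in RCS cells and 1701, 1833 and 1909 in rib tissue, 1.73-fold lower in RCS cells (difference -0.79, SE 0.08, limma adjusted p 3.35e-05, and -0.46 under quantile normalization). Il11ra1, the receptor of interleukin 11, was at 244, 272 and 241 against 458, 403 and 391, 1.65-fold lower (-0.72, SE 0.10, adjusted p 0.000172). It overlaps Ccl27 in GRCr8, which did not exceed 10.8 in any library. Il6r was at 413, 418 and 364 against 476, 390 and 580, with overlap and no call (-0.26, 95% interval -0.59 to 0.07, adjusted p 0.13). It was called lower without rib tissue replicate 2 (-0.40) and under cyclic loess (-0.40), and was -0.12 without rib tissue replicate 3. It overlaps She in GRCr8, which was at 0 in RCS cells and at 71.9, 74.2 and 58.6 in rib tissue. Il31ra, a specific chain for interleukin 31, was at 0 in RCS cells and at 5.2, 21.6 and 16.5 in rib tissue, and Il27ra, the chain for interleukin 27, was at 1.09, 2.33 and 1.42 against 1.42, 4.1 and 0.

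The interleukin 1 receptor genes Il1r1 and Il1rap were present in RCS cells, and the sister receptor genes Il1rl1 and Il1rl2 were not. Il1r1 was at 297, 316 and 330 normalized counts in RCS cells and 440, 488 and 463 in rib tissue, 1.47-fold lower (difference -0.56, SE 0.08, limma adjusted p 0.000315). Its accessory chain Il1rap was at 82.8, 80.7 and 96.5 against 78.5, 118 and 90.8, a difference of -0.13 without a call. Il1rl1, the receptor of interleukin 33, was at 0 in every RCS library and at 13.4, 64.2 and 27.2 in rib tissue. Il1rl2, the receptor of interleukin 36, was at 0 against 19.7, 26.7 and 32.7. The differences were -4.90 and -4.75. Mast cell markers, of a cell type known for Il1rl1, were also highest in rib tissue replicate 2, with sums of 351, 636 and 472. Kit, which held much of that sum, was highest in replicate 3 (191, 306 and 361) and was at 204, 193 and 186 in RCS cells, and the other 4 markers were at 0 in RCS cells and highest in rib tissue replicate 2. Their part in the Il1rl1 values was not tested.

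Receptor chains known from blood cells differed from one another in RCS cells. Il2rg, the common gamma chain, was at 5.7, 6.87 and 9.31 normalized counts in RCS cells against 42.8, 67.7 and 34.3 in rib tissue (difference -2.54, a call lost under quantile normalization). Il3ra, the private chain for interleukin 3, was at 11.6, 3.82 and 5.36 against 97.1, 88.9 and 91.7 (-3.68). Il4ra, which also serves outside the blood, was at 89.2, 87.2 and 93.5 against 279, 255 and 155 (-1.30). Il10rb, shared by the interleukin 10 family, was at 93.3, 105 and 137 against 125, 159 and 147 and did not pass the test (-0.37, adjusted p 0.0735 in limma). It was called lower with array weights, under cyclic loess and median scaling, with the replicate block and without RCS cells replicate 3, and its partner Il10ra was at 0 in RCS cells. Il12rb2, known from T cells, was at 216, 245 and 262 against 204, 216 and 237, a difference of 0.14 (adjusted p 0.274). Its partner Il12rb1 did not exceed 9.68 in any library, and the cytokine gene Il12b was at 0 in all 6. Of the T cell genes, Cd3d was at 0 in all 6 libraries and Cd8a in each RCS library, and Cd3e, Cd3g and Cd4 did not exceed 3.37 in RCS cells.

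Of 4 genes for soluble antagonists and binding proteins, 2 were tested and both were lower in RCS cells. Il18bp, which neutralizes interleukin 18, was at 21.5, 16.9 and 12.9 normalized counts in RCS cells and 56.6, 56.2 and 74.0 in rib tissue, 3.53-fold lower (difference -1.82, SE 0.25, limma adjusted p 0.000192), and lost its call under quantile normalization (-0.38). Il1rn, the interleukin 1 receptor antagonist, was at 0 against 4.55, 2.05 and 2.0 (-1.89, and -0.95 under quantile normalization), and turned to 0.67 under cyclic loess. Il4i1 carries an interleukin symbol but encodes an enzyme that oxidizes amino acids. It was at 51.5, 60.5 and 45.2 in RCS cells and 50.9, 45.7 and 61.5 in rib tissue, a difference of -0.01.

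**Figure D4:**
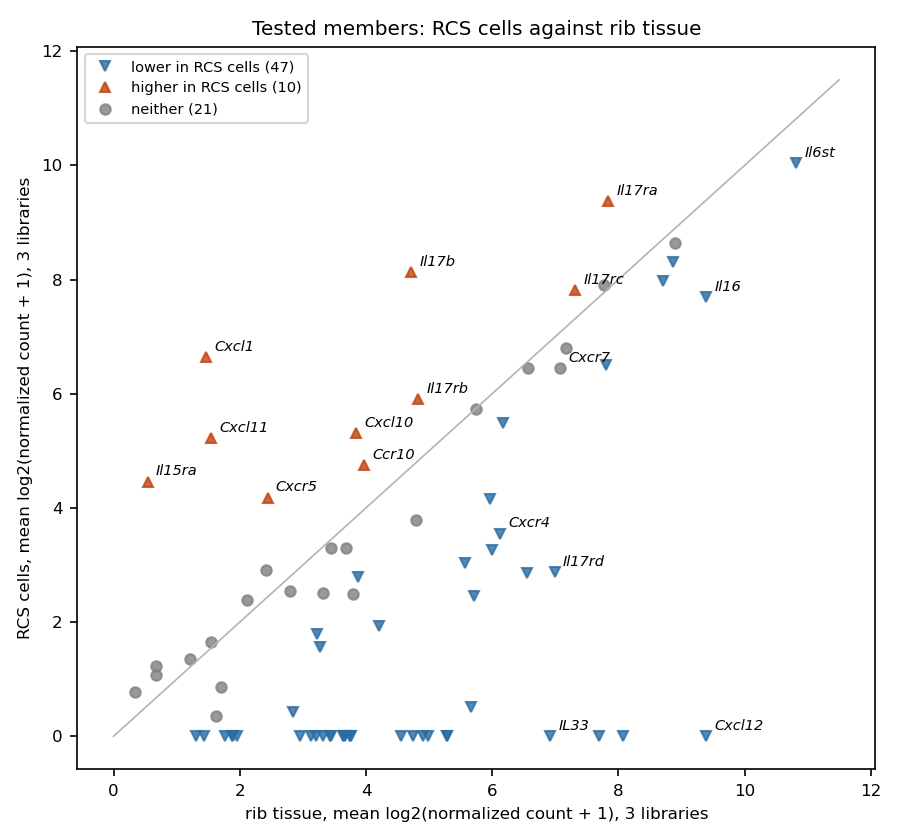
Mean level in RCS cells (vertical axis) against rib tissue (horizontal axis), both as mean log2(normalized count + 1) over 3 libraries, for the 78 tested genes, with the diagonal marking equal levels. Genes along the bottom edge are the 28 listed at 0 in every RCS library, and the 10 upward triangles are those higher in RCS cells.

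The 9 members with a mean of at least 100 normalized counts in both groups are Il6st, Il6r, Il11ra1, Il1r1, Il10rb, Il12rb2, Il17ra, Il17rc and Il16, of which 4 were lower in RCS cells, 2 higher and 3 neither. The widest difference was 3.25-fold, for Il16, and a choice by level in both groups leaves out genes that are low in either. All but Il16 are receptor chains.

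Other genes of these pathways include further ligands and receptors, kinases, transcription factors and inhibitors. Of 71 such genes in the table, 65 were tested. RCS cells had 30 of them lower, 20 higher and 15 neither, and 57 were above 0 in all 6 libraries. That is 76.9% called, against 76.5% of all genes, with a median difference of -0.11. Among those higher, Stat4, a transcription factor known from interleukin 12 signalling, was at 5.17, 14.1 and 21.3 normalized counts in RCS cells against 1.52, 2.69 and 1.86, and Irak1, a kinase of interleukin 1 receptors, at 1545, 1425 and 1295 against 744, 623 and 674, 2.09-fold. The differences were 2.10 and 1.06.

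Among those lower, Cntfr, a receptor chain of the interleukin 6 family, was at 1.09, 0 and 0 normalized counts in RCS cells against 133, 112 and 152 in rib tissue. Csf2rb, a shared chain of the interleukin 3 and 5 receptors, was at 0 against 64.9, 101 and 68.6, and the platelet chemokine Pf4 at 0 against 56.6, 77.5 and 43.8. The differences were -6.69, -6.28 and -5.88. Among NF-kappaB genes, Chuk (1.95-fold), Ikbkg (1.93-fold), Ikbkb (1.17-fold) and the inhibitor Nfkbib (1.7-fold) were higher in RCS cells. Relb (3.2-fold), Nfkb1 (1.39-fold) and the inhibitor Tnfaip3 (6.10-fold) were lower. Nfkb2, Rel and the inhibitor Nfkbia did not pass the test. Rela differed by 0.02 (adjusted p 0.792 in limma). Stat3, which carries signals of the interleukin 6 family, was 1.94-fold lower in RCS cells.

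**Figure D5:**
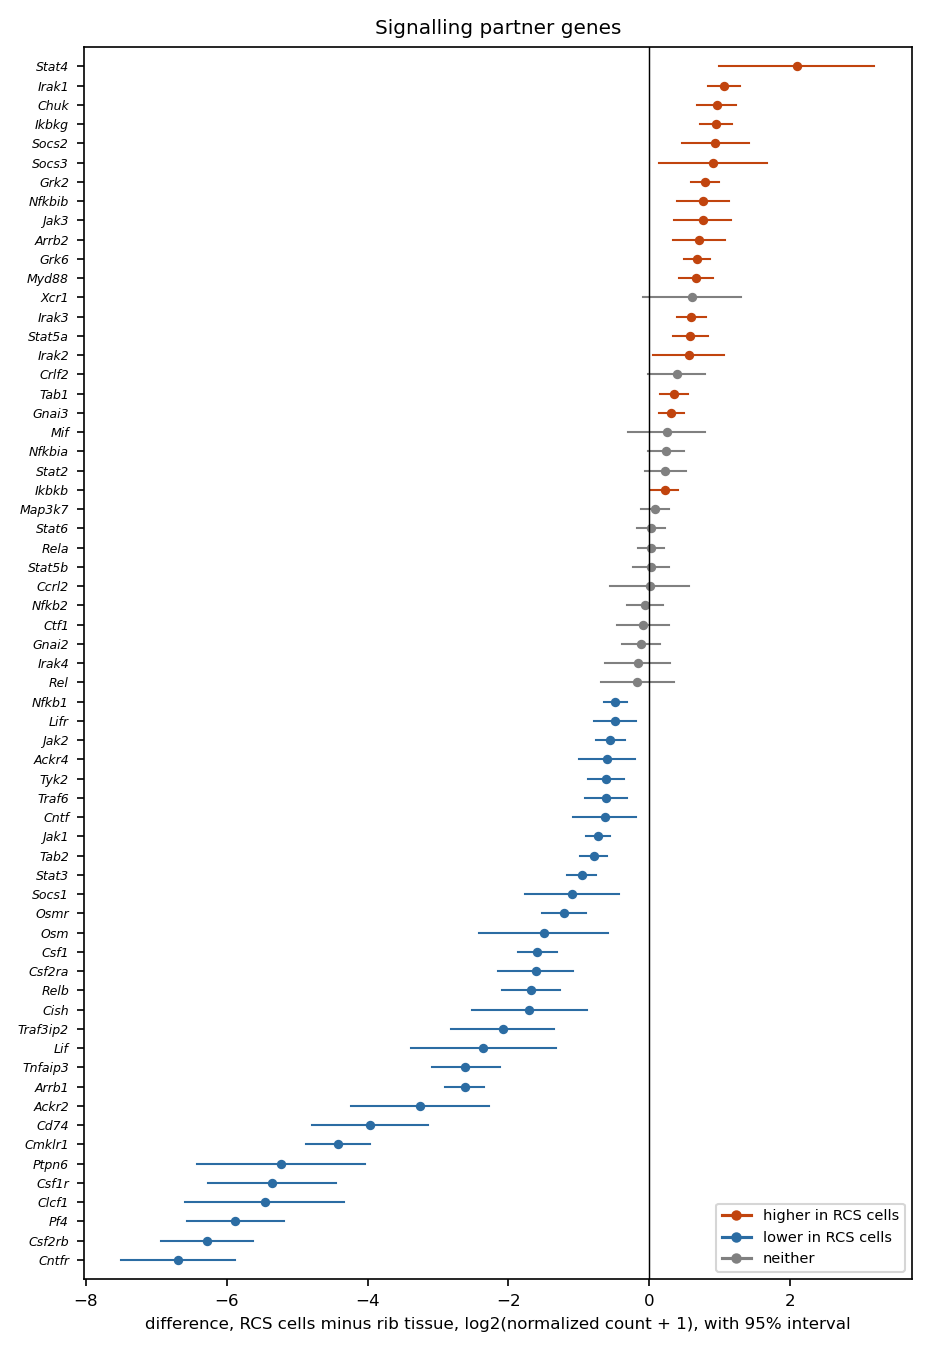
Difference RCS cells minus rib tissue on the log2(normalized count + 1) scale (horizontal axis), with 95% intervals, for 63 of the 65 tested signalling partner genes (vertical axis). Stat4 lies at the upper end, at 2.10, and Cntfr, Csf2rb and Pf4 at the lower end, at -6.69, -6.28 and -5.88.

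The rib libraries differed among themselves in these genes. Of 69 tested members above 0 in every rib library, 35 (50.7%) had their highest value in rib tissue replicate 2, against 31.2% of 16142 such genes overall. Among them were Ccl2, Ccl7, Ccl24, Cxcl9, IL33 and Il1rl1. Endothelial markers summed to 2875, 3610 and 2247 in rib tissue replicates 1 to 3, and the part of cell makeup in the order of the libraries was not tested. Without rib tissue replicate 2, 9 members were higher and 46 lower in RCS cells.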

How the data were processed

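RNA-seq of 3 RCS and 3 rib libraries was used as 1 table of log2 values deposited by the authors. Per the submitters' processing notes, CASAVA 1.8, DESeq and the build rn5 were used, with no role given, and aligner, counting rule and strand use were not given in the sources used here. The unit was inferred. The smallest gap among a library's 5 most frequent low values was taken as 1 read, and the deposited log2 values were read as log2 of a read count over 1 factor per library, with 1 or less listed as 0, although the table is named for RPKM. Among values of 10 reads or fewer, the share within 0.01 of a whole read was 38.7% to 54.9% (2% by chance), so no count model was used. No libraries were identical.

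Values were tested as log2(normalized count + 1) in limma 3.58.1 (R 4.3.3, intensity trend, two-sided), which was checked on simulated data. Groups came from sample titles. Of 132 members, 131 matched RefSeq GRCr8 by gene identifier or, where that was missing, by symbol. RefSeq was used for names, overlaps, neighbours and promoter windows. The members and lists were chosen with earlier results of these data known. Named members are all those called higher and, in each of 6 role lists, the 5 tested genes with the highest mean in their higher group (33 genes), and for signalling partners the 3 largest called differences in each direction with a mean of at least 10 in the higher group. A few genes that these rules and lists cover are not reported here. Other genes named were chosen after their values were seen. Folds are given where both group means were at least 10. Of 74 partner names, Tslp and Ackr1 did not match, and Ackr3 is a member. Alternatives were other scalings, pseudocounts, filters, variance models, a replicate block and leaving out each library.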

Additional observations from a re-analysis of the deposited data

How the results depend on the processing

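Over 16 alternatives, 25 of the 33 named members kept their direction and their side of the threshold wherever they were tested. Among these were Cxcl1, Cxcl10, Cxcl11, Cxcr5, Il15ra, Il17b, Il17ra and Il17rb. Ccl7 and Ccl24, counted among the 25, were not tested with a filter of 10 in 3 libraries, and neither were Ccl9 and Il1rn. Members higher in RCS cells numbered 22 under quantile normalization and 22 under cyclic loess in place of 10, and 10 and 9 of the original calls were kept. Members lower numbered 27 in place of 47 with a filter of 10 in 3 libraries, which tested 44 genes. Differences turned for Ccl9 (0.46 under cyclic loess, 1.12 under quantile normalization), Cxcl16 (0.32 under quantile normalization) and Il1rn (0.67 under cyclic loess). Il9r and Il24 went from lower to higher calls under cyclic loess, and Cxcl17 and Il28ra under quantile normalization. The cause was not tested. Without each library in turn, 8 to 10 members were higher and 45 to 50 lower. Same-numbered libraries did not deviate together (correlations 0.064, -0.076 and 0.047), and RCS cells replicate 2 correlated more with rib tissue replicate 1 (0.163). With the replicate number as a block, 10 members were higher and 51 lower, and 19 partner genes were higher and 30 lower. The planned count model was not run, since the table holds no raw counts. Values near 0 rest on few reads, which limits what can be said of low genes.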
